A study of Mus musculus with 30 samples.

Results

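The genes described here encode 9 subunits of the Polycomb group complexes: *Ezh1*, *Ezh2*, *Eed*, *Suz12*, *Cbx2*, *Cbx7*, *Cbx8*, *Bmi1* and *Scmh1*. They are the rows of the gene table with these symbols, 9 of 25400 genes, and all 9 passed the filter on low counts. They had been put together as subunits that switch between ESCs and neural progenitors. No ESC library was sequenced for RNA among the samples used here, so that switch itself could not be measured, and the genes are compared between lines that had all been taken through neuronal differentiation.

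Polycomb repressive complex 2 (PRC2) methylates lysine 27 of histone H3 and is built on EED, SUZ12 and one of the paralogous methyltransferases EZH2 and EZH1. Proliferating and embryonic cells mostly use EZH2, while EZH1 is the form typical of resting and differentiated cells. Canonical Polycomb repressive complex 1 (PRC1) reads this mark through a CBX chromodomain protein, holds a PCGF protein such as BMI1 (PCGF4) beside a RING ubiquitin ligase, and associates with SAM-domain proteins such as SCMH1. In ESCs CBX7 is the main chromodomain subunit, and CBX2 and CBX8 are known for taking its place as cells differentiate.

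Poly(A) RNA was sequenced from neuronal progenitor cells (NPCs) made in vitro from mouse ESCs (HA36CB1, 129×C57BL/6), in 24 libraries from 8 lines, with 3 libraries for every line. Besides wild type (WT) these were *Mbd3* KO (exons 2 and 3 of *Mbd3* targeted by CRISPR/Cas9), and *Mbd3* KO cells with a biotin-tagged construct that was placed at a recombination site by Cre and driven by the strong, ubiquitous CAG promoter. The constructs were MBD3a, MBD3dMBD (MBD3a without its methyl-CpG binding domain), MBD2a, MBD2adGR (MBD2a without the glycine-arginine stretch), MBD2aR181C (MBD2a with a point mutation in the methyl-CpG binding domain) and MBD2t, the truncated isoform. The labels write the point mutation as R181C, the study text as R191C and the deposited columns as R64C, and these were taken as 1 line because no other point mutant of MBD2a was profiled. All lines but WT therefore carry the *Mbd3* KO, and the *Mbd2* locus was not targeted in any of the 8. Each library came from its own clone except for MBD2t, whose 3 libraries repeat 1 clone and so carry no spread among clones. Libraries are named s01 to s24, as in the deposited columns.

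Library totals lay between 27993858 and 49392806 counts. *Mbd3* itself was at 154 ± 4.06 CPM (counts per 1000000 of the TMM-scaled library, mean ± SD, n = 3) in WT and 59.0 ± 21.6 CPM in *Mbd3* KO, so the transcript was reduced but not lost. The NPC label was checked against 11 neural progenitor markers, whose summed level was 2548 to 2963 CPM in WT, 169.8 to 307 in *Mbd3* KO, 194 to 411 in MBD2a and 262 to 319 in MBD2t. None of the 11 was at 0 in any line. The 12 pluripotency markers summed to 45.4 to 175 CPM in WT, 424 to 1129 in *Mbd3* KO, 509.5 to 815 in MBD2a and 646 to 775 in MBD2t. The cultures labelled NPC in these lines thus carried a low level of the markers that define the label. In bulk RNA, fewer cells of a type and less RNA per cell cannot be told apart, and this holds for every member below.

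In *Mbd3* KO the Polycomb subunits moved in both directions. *Ezh2*, *Cbx2*, *Cbx8*, *Bmi1* and *Scmh1* fell, *Ezh1*, *Suz12* and *Cbx7* rose, and only *Eed* did not pass the test (adjusted p under 0.05 in edgeR's quasi-likelihood test over 16582 genes). Of the 9 genes, 8 passed, and over all genes tested 60.2% did. The 3 that rose compare with 29.5% of all genes and the 5 that fell with 30.8%. Requiring in addition a log2 fold change beyond 1 in either direction, which is what "called" means from here on, left *Ezh2*, *Cbx7*, *Cbx8*, *Bmi1* and *Scmh1*, 5 of 9 against 33.8% of all genes. For 8 of the 9 the *Mbd3* KO and WT libraries did not overlap, against 62.2% of all genes. The median log2 fold change was -0.75 over the 9 and -0.03 over all genes tested. Without library s04 of *Mbd3* KO the called members were 3, since *Cbx7* and *Cbx8* then stayed under the fold threshold.

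**Figure D1:**
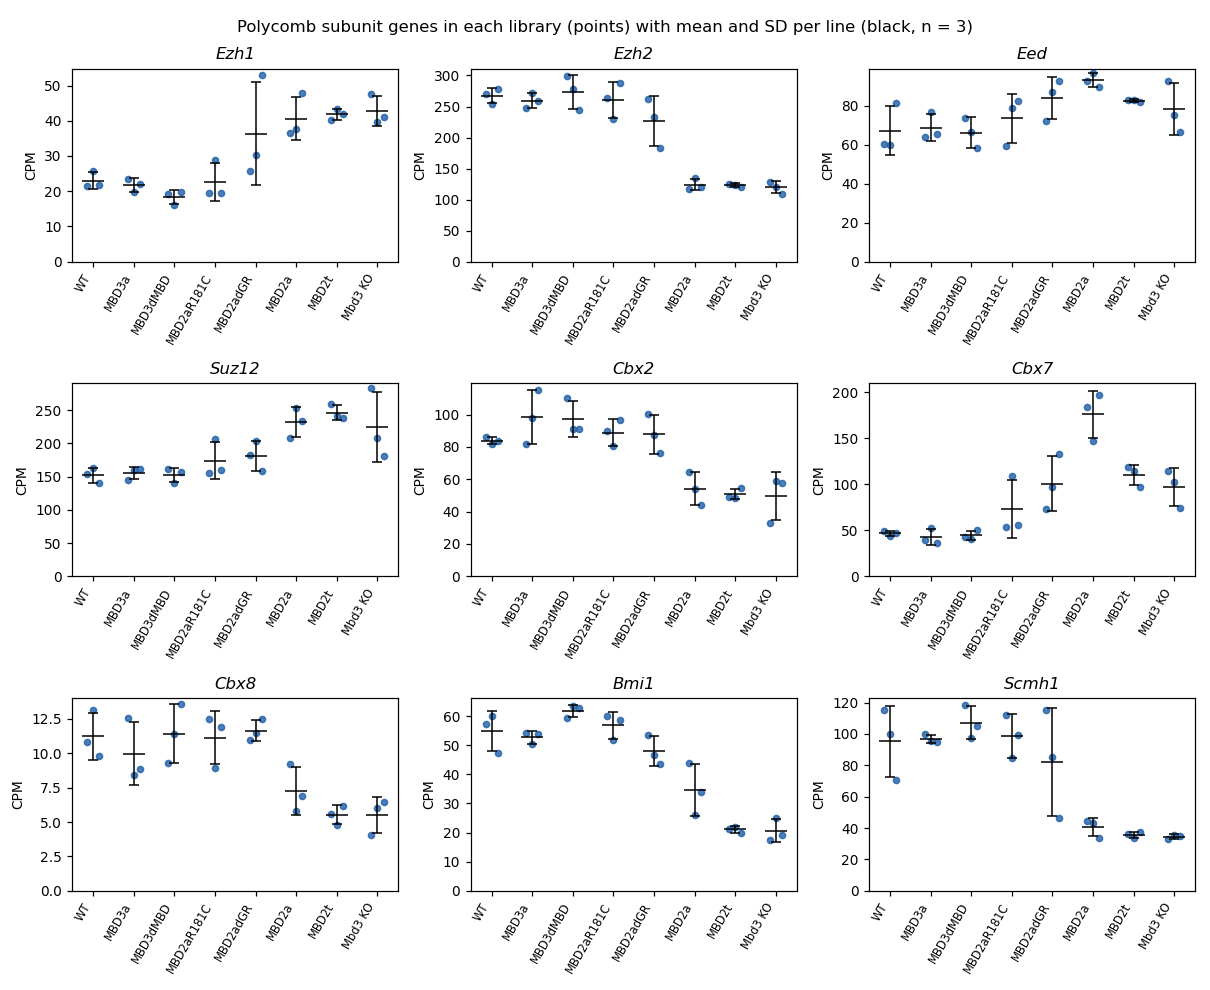
Level of each of the 9 Polycomb subunit genes (vertical axis, CPM, from 0) in the 8 lines (horizontal axis), with a point for each library and the mean and SD of 3 libraries in black. MBD2a, MBD2t and *Mbd3* KO sit together at the right, low for *Ezh2*, *Cbx2*, *Cbx8*, *Bmi1* and *Scmh1* and high for *Ezh1* and *Cbx7*. The MBD2adGR libraries span a wider range than those of any other line for *Ezh1*, *Cbx7* and *Scmh1*.

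The methyltransferase genes moved in opposite directions. *Ezh2* (chr6:47480273-47545340 on the minus strand of mm9) was at 270.4, 254 and 278 CPM in the 3 WT libraries and at 129, 120.5 and 109.6 CPM in *Mbd3* KO. The groups lay far apart, with a log2 fold change of -1.16 ± 0.12, adjusted p = 3.04e-07 (± standard error for all log2 fold changes). *Ezh1* (chr11:101052429-101087777, minus strand) was at 21.5, 25.7 and 21.7 CPM in WT and at 47.7, 39.7 and 41.2 CPM in *Mbd3* KO, a log2 fold change of 0.90 ± 0.21, adjusted p = 0.00108. All 3 *Mbd3* KO libraries were above all 3 of WT. Exons of *Ezh2* share 174 bases (2.81%) with the lincRNA gene *Gm17629* on the opposite strand, so that a few of its reads could belong to either if strand was not used in counting.

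Per length the rise of *Ezh1* made up only a small portion of the loss of *Ezh2*. Divided by the exon length of the gene model, the summed level of both was 46.2 ± 1.66 CPM per kb in WT and 25.1 ± 2.03 CPM per kb in *Mbd3* KO. The share of that sum from *Ezh1* was 6.70 ± 0.935% in WT and 23 ± 1.25% in *Mbd3* KO, and it was 21.4 ± 3.11% in MBD2a and 22.1 ± 0.867% in MBD2t. *Ezh2* stayed the more abundant of the pair per length in all 24 libraries. The ratio of *Ezh1* to *Ezh2* per length, which does not depend on library scaling, was 0.0650 to 0.0843 in WT and 0.274 to 0.313 in *Mbd3* KO. Its mean log2 was above that of WT by 2.06 without overlap, at an exact two-sided permutation p of 0.1, the smallest that 3 against 3 libraries can give (0.162 after adjustment over 21 ratio tests). In MBD3a and MBD3dMBD the ratio was 0.0605 to 0.0789 and 0.0485 to 0.0676, overlapping WT.

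The promoter windows of the pair, 250 bases before to 50 after the RefSeq start on GRCm38.p6, are shown because the 2 genes moved in opposite directions in *Mbd3* KO, MBD2a and MBD2t. The window of *Ezh2* (chr6:47594981-47595280, minus strand) held 31 CpG and that of *Ezh1* (chr11:101226414-101226713, minus strand) 23, against a median of 7 over 32851 windows. Capitals mark matches on either strand to 4 motifs. The E2F site was searched as TTTGGCGC and TTTCCCGC. The E-box was searched as CACGTG, and the GC box as GGGCGG, beside the CCAAT box. Of all windows, 1.56% held an E2F site, 7.15% an E-box, 37.4% a CCAAT box and 35.7% a GC box.
Ezh2: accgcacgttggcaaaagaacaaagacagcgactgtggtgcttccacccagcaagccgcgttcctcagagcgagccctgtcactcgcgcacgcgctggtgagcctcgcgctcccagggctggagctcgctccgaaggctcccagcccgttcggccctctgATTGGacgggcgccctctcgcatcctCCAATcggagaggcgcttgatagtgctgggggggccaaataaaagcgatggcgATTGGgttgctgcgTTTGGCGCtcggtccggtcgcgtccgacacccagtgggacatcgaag
Ezh1: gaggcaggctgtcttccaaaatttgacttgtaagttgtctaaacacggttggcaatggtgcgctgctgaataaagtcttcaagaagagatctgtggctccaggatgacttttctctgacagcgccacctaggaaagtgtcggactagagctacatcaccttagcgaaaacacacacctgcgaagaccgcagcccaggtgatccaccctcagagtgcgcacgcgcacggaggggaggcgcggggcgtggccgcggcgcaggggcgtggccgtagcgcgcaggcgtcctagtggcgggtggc
The *Ezh2* window held 1 E2F match and 3 CCAAT matches, and the *Ezh1* window held none of these letters. RefSeq windows were matched for 8 of the 9 genes. *Suz12* was the other gene with an E2F match. A match describes letters in the window and not a bound site.

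The core partners of the methyltransferases did not follow *Ezh2*. *Suz12* (chr11:79806608-79847625, plus strand), whose product stabilizes the complex, was at 155, 162 and 139.6 CPM in WT and 283, 208 and 182 CPM in *Mbd3* KO, a log2 fold change of 0.56 ± 0.14, adjusted p = 0.00227. All *Mbd3* KO libraries were above WT, with s04 the highest, and without s04 the log2 fold change was 0.35 (adjusted p = 0.0275). Its exons share 178 bases (3.6%) with *Gm16706* on the opposite strand. *Eed* (chr7:97103166-97129493, minus strand), which binds the methylated histone tail, was at 60.4, 59.8 and 81.5 CPM in WT and 92.6, 75.4 and 66.4 CPM in *Mbd3* KO. These groups overlapped, with a log2 fold change of 0.22 ± 0.15, adjusted p = 0.216. In MBD2a *Eed* passed the test against WT, at 92.7, 96.9 and 89.8 CPM and a log2 fold change of 0.47 ± 0.15, adjusted p = 0.0119, where all 3 libraries exceeded WT. In MBD2t *Eed* had a log2 fold change of 0.30 ± 0.15, adjusted p = 0.0926, and passed when libraries were scaled by the size factors of DESeq2, here called RLE scaling (0.0413), with library size only (0.0127), with DESeq2 (0.0361) and without s03 of WT (0.0157), by adjusted p. In *Mbd3* KO it passed with library size only (0.0472) and without s03 (0.0416).

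The chromodomain genes exchanged their order. *Cbx7* (chr15:79746237-79801549, minus strand), the chromodomain gene of ESCs, was at 48.8, 43.9 and 47.1 CPM in WT and 114, 102 and 74.5 CPM in *Mbd3* KO, a log2 fold change of 1.06 ± 0.25, adjusted p = 0.00116. *Cbx2* (chr11:118884276-118892584, plus strand), which compacts chromatin in differentiating cells, was at 86.3, 81.7 and 83.7 CPM in WT and 32.6, 58.6 and 57.8 CPM in *Mbd3* KO, a log2 fold change of -0.75 ± 0.18, adjusted p = 0.00167. Neither pair of groups overlapped. *Cbx8* (chr11:118897619-118902283, minus strand), the neighbour of *Cbx2* on chromosome 11, had the lowest CPM of the 9 genes, at 10.8, 13.1 and 9.76 CPM in WT and 4.03, 6.04 and 6.48 CPM in *Mbd3* KO. This was a log2 fold change of -1.02 ± 0.22, adjusted p = 0.000599, again without overlap, from 141 to 477 reads per library.

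Per length, *Cbx2* led 4 CBX genes of canonical PRC1 in WT at 19.7 ± 0.543 CPM per kb, before *Cbx7* at 12.3 ± 0.657 and *Cbx6* at 11.3 ± 2.30, whose spreads overlapped. In *Mbd3* KO *Cbx7* led at 25.6 ± 5.39 CPM per kb, before *Cbx6* at 13.3 ± 1.77 and *Cbx2* at 11.7 ± 3.47. The share of *Cbx7* in the summed level per length of *Cbx2*, *Cbx6*, *Cbx7* and *Cbx8* was 26.6 ± 1.90% in WT, 49.1 ± 10.2% in *Mbd3* KO, 51.1 ± 3.70% in MBD2t and 59.4 ± 6.05% in MBD2a. *Cbx6* did not pass the test in *Mbd3* KO (log2 fold change of 0.24 ± 0.15), and was added here after its values had been seen. The ratio of *Cbx7* to *Cbx2* per length was under 1 in every WT, MBD3a and MBD3dMBD library (0.603 to 0.635, 0.348 to 0.60 and 0.433 to 0.616). It was above 1 in every *Mbd3* KO, MBD2t and MBD2a library (1.45 to 3.93, 2.01 to 2.7 and 3.08 to 4.99). The ratio of *Cbx7* to *Cbx8* was 3.24 to 4.68 in WT and 11.2 to 27.5 in *Mbd3* KO. Both ratios were above WT without overlap in *Mbd3* KO, MBD2a, MBD2t and MBD2adGR, each at the smallest exact permutation p of 0.1 (0.162 adjusted). The ratio of *Cbx7* to *Cbx2* also lay wholly above WT in MBD2aR181C and wholly below it in MBD3a, by log2 differences of 0.49 and -0.37, at the same p.

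**Figure D2:**
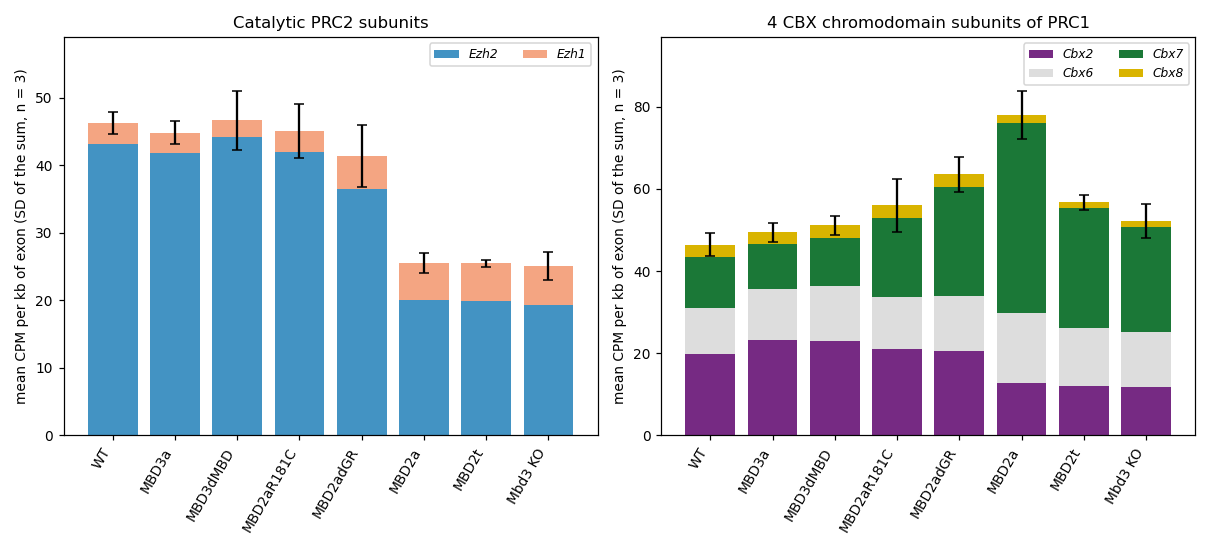
Mean level per kb of exon of the PRC2 methyltransferase genes (left) and of 4 CBX genes of canonical PRC1 (right), stacked for each line, with the SD of the summed level over 3 libraries as the error bar. The left bars fall to about the same height in MBD2a, MBD2t and *Mbd3* KO, at 25.5 ± 1.48, 25.5 ± 0.489 and 25.1 ± 2.03 CPM per kb, while the right bars hold less *Cbx2* and more *Cbx7* there and reach their greatest height in MBD2a.

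*Bmi1* (chr2:18598645-18608256, plus strand), the PCGF subunit known for keeping progenitors proliferating, was at 57.3, 60.2 and 47.2 CPM in WT and 17.4, 25.0 and 19.3 CPM in *Mbd3* KO. The highest *Mbd3* KO library was well below the lowest of WT, and the log2 fold change was -1.41 ± 0.16, adjusted p = 8.78e-07. *Scmh1* (chr4:120077886-120202804, plus strand), a SAM-domain protein that associates with canonical PRC1, was at 115, 99.9 and 70.9 CPM in WT and 32.7, 35.6 and 35.2 CPM in *Mbd3* KO, with a log2 fold change of -1.46 ± 0.23, adjusted p = 2.28e-05. The *Mbd3* KO libraries were close to each other and the WT libraries were not. This was the largest fall among the 9 genes by value, and that of *Bmi1* lay within its standard error.

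Among the PCGF genes, each of which marks a different form of PRC1, the fall of *Bmi1* stood beside a rise of *Pcgf5* (log2 fold change 2.01 ± 0.52, adjusted p = 0.0026). Per length the share of *Bmi1* in the sum of the 6 PCGF genes was 17.7 ± 1.33% in WT, 7.62 ± 1.74% in *Mbd3* KO and 11.5 ± 2.69% in MBD2a. That of *Pcgf5* was 5.41 ± 2.29% in WT, 24.3 ± 5.37% in *Mbd3* KO and 16.9 ± 5.82% in MBD2a. *Pcgf1* also had a lower share there, at 17.8 ± 1.08% in WT, 11.3 ± 0.662% in *Mbd3* KO and 15.0 ± 0.503% in MBD2a. *Pcgf2*, the closest paralogue of *Bmi1*, had the largest mean share in every line (27.5 ± 2.27% in WT and 24.9 ± 2.90% in *Mbd3* KO). The exon lengths of *Pcgf5* and *Pcgf1* in the annotation, 1.72 and 0.870 kb, are the shortest of the 6, which raises their level per length. These shares were computed after the values of the PCGF genes had been seen.

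The promoter windows of *Cbx7* and *Bmi1* are shown as the gene of PRC1 that rose and a gene of PRC1 that fell. That of *Cbx7* (chr15:79932597-79932896, minus strand of GRCm38.p6) held 33 CpG and that of *Bmi1* (chr2:18676768-18677067, plus strand) 23.
Cbx7: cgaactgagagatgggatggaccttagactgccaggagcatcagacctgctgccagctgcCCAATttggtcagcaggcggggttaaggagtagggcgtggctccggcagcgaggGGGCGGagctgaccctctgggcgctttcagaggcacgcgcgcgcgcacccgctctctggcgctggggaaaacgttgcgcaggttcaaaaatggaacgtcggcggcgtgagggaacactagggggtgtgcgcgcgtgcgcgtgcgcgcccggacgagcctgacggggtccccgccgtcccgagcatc
Bmi1: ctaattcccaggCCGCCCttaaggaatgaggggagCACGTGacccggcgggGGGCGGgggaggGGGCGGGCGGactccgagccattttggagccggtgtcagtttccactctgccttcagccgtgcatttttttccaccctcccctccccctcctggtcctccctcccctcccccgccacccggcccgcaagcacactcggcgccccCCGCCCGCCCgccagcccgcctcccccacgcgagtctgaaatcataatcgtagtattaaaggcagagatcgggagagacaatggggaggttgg
In the marking used above, *Cbx7* held 1 CCAAT match and 1 GC box match, and *Bmi1* held 1 E-box match and 6 GC box matches, some of which overlap. The windows of *Eed*, *Cbx8* and *Suz12* held 17, 24 and 41 CpG. *Scmh1* had a pair of windows, with 54 and 0. Genes that rose and genes that fell did not separate by CpG count in these windows.

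MBD3a and MBD3dMBD, the constructs that put MBD3 back with or without its methyl-CpG binding domain, gave levels of the 9 genes that did not differ from WT past the test. None of the 9 passed the test in MBD3a against WT, where 0% of all genes passed and no member had an unadjusted p under 0.05. None passed in MBD3dMBD either, where 0.0181% of all genes were called and again no member had an unadjusted p under 0.05. DESeq2 called no member in either line. *Ezh2* was at 248, 272 and 259 CPM in MBD3a and 299.7, 277 and 245 CPM in MBD3dMBD. *Bmi1* was at 54.3, 50.3 and 53.8 CPM in MBD3a and 59.4, 63.3 and 62.8 CPM in MBD3dMBD. Both genes overlapped WT in both lines. The log2 fold changes of the 9 against WT ran from -0.17 to 0.23 in MBD3a and from -0.32 to 0.21 in MBD3dMBD, the lowest in the latter being *Ezh1*. In MBD3dMBD the libraries of 2 of the 9 did not overlap WT, against 11.7% of all genes. These were *Ezh1*, lower at 19.3, 16.2 and 19.9 CPM, and *Cbx2*, higher at 110.2, 91.0 and 90.8 CPM.

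Against *Mbd3* KO, 8 of the 9 passed in each of these lines, all but *Eed*, where 57.8% of all genes passed for MBD3a and 62% for MBD3dMBD. Of these, 4 were called in MBD3a (32.4% of all genes) and 6 in MBD3dMBD (35.9%). *Ezh2* was higher than in *Mbd3* KO by 1.12 ± 0.12, adjusted p = 5.85e-07 in MBD3a and by 1.19 ± 0.12, adjusted p = 1.95e-07 in MBD3dMBD on the log2 scale. *Eed* in MBD3dMBD (-0.24 ± 0.15, adjusted p = 0.165) passed with library size only (0.0197) and without s06 (0.0406). *Cbx7* was lower, with log2 fold changes of -1.20 ± 0.25, adjusted p = 0.000465 in MBD3a and -1.13 ± 0.25, adjusted p = 0.00061 in MBD3dMBD. Every one of the 8 went back toward its WT level. These comparisons share the 3 *Mbd3* KO libraries, as those against WT share the 3 of WT.

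MBD2a, the full-length MBD2 isoform, left the Polycomb genes close to *Mbd3* KO but not at it. All 9 passed against WT, where 55.5% of all genes did, with 4 higher (27.4% of all genes) and 5 lower (28.1%). Only *Ezh2*, *Cbx7* and *Scmh1* were called, 3 of 9 against 30.6%, and in all 9 the libraries of the 2 lines did not overlap (56% of all genes). *Cbx7* rose most, at 184, 147 and 197 CPM, a log2 fold change of 1.92 ± 0.25, adjusted p = 8.38e-06 against WT. *Ezh2* was at 118, 135 and 120.0 CPM (log2 fold change -1.11 ± 0.12, adjusted p = 1.19e-06). *Scmh1* was at 44.4, 43.4 and 33.9 CPM (log2 fold change -1.23 ± 0.22, adjusted p = 0.000169). *Ezh2* and *Scmh1* thus lay in the range of *Mbd3* KO or just above it, and *Cbx7* above the range of every other line.

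The direct comparison of MBD2a with *Mbd3* KO separated 2 of the 9 genes, where 8.77% of all genes passed, and none was called (5.25% of all genes). With 0 called, 2 members had an unadjusted p under 0.05 and DESeq2 also called 0. *Bmi1* was at 43.7, 25.9 and 34.0 CPM in MBD2a, above the 3 *Mbd3* KO libraries, with a log2 fold change of 0.75 ± 0.16, adjusted p = 0.00475. *Cbx7* was higher too, with a log2 fold change of 0.86 ± 0.24, adjusted p = 0.0329. *Bmi1* was thus between WT and *Mbd3* KO in MBD2a, and *Cbx7* was further from WT than in *Mbd3* KO. The *Bmi1* difference did not pass without library s13 of MBD2a (adjusted p = 0.0525) or in a fit of only these 2 lines (0.154). That of *Cbx7* did not pass without s05, s06, s13 or s15 (adjusted p of 0.0713, 0.147, 0.104 and 0.0724), without the MBD2t line (0.0532) or in the fit of 2 lines (0.0808). The other 7 had log2 differences from *Mbd3* KO between -0.08 and 0.39. In MBD2a against WT, *Cbx8* did not pass without s02, s14 or s15 (adjusted p of 0.0921, 0.0984 and 0.0703), with library size only (0.0777) or in the fit of 2 lines (0.0841), and *Cbx2* not without s15 (0.0527).

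MBD2t, which lacks the coiled coil, gave values next to those of *Mbd3* KO in the single clone profiled. Against WT 8 of 9 passed, with *Eed* the exception, where 59.8% of all genes passed (28.7% higher and 31.1% lower). Of the 9, 5 were called (33.4% of all genes), and in 9 of 9 the libraries did not overlap (69.2%). *Bmi1* was at 21.4, 22.1 and 19.9 CPM, *Scmh1* at 36.1, 33.9 and 37.5 CPM and *Ezh2* at 125, 124 and 119.6 CPM. These repeats of 1 clone lay within or next to the range of *Mbd3* KO. Against *Mbd3* KO none of the 9 passed, where 0.0302% of all genes passed and 0.0241% were called, none had an unadjusted p under 0.05, and DESeq2 called none. The log2 differences ran from -0.03 to 0.18, the latter for *Cbx7*, whose standard error was 0.24.

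**Figure D3:**
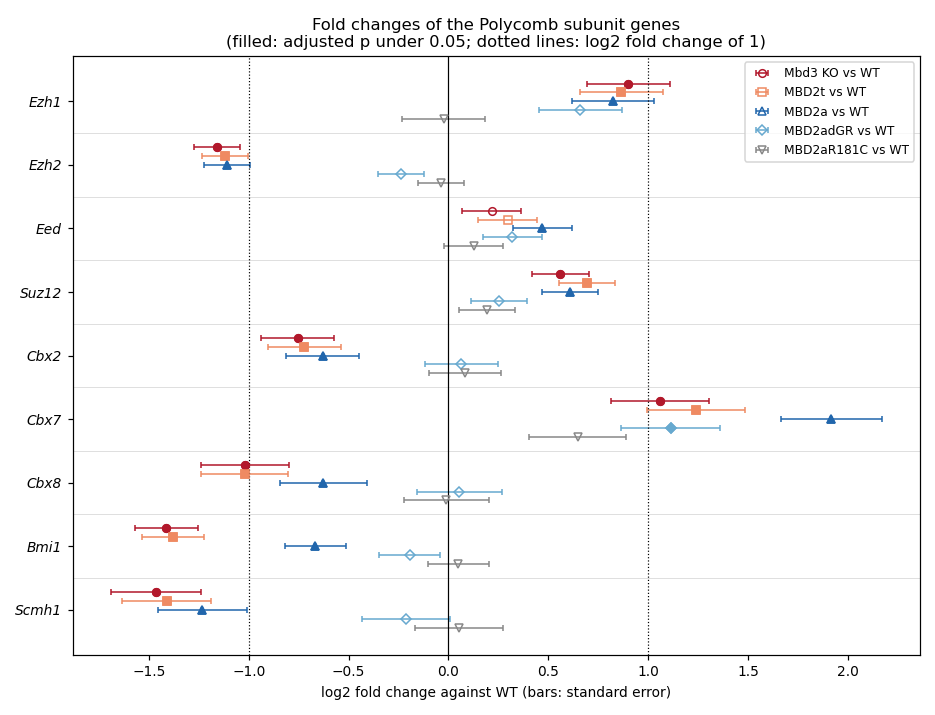
Log2 fold change against WT (horizontal axis, bars: standard error) of the 9 genes in 5 lines, filled where the adjusted p was under 0.05, with dotted lines at a log2 fold change of 1 in either direction. *Mbd3* KO, MBD2t and MBD2a lie side by side for *Ezh1*, *Ezh2* and *Scmh1*, MBD2a lies apart for *Cbx7* and *Bmi1*, and for MBD2adGR only *Cbx7* is filled, at 1.11.

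MBD2adGR, MBD2a without the glycine-arginine stretch, had 1 of 9 genes past the test against WT, *Cbx7*, which was also called (8.55% of all genes passed and 5.16% were called). *Cbx7* was at 72.8, 96.9 and 133 CPM, all above WT, with a log2 fold change of 1.11 ± 0.25, adjusted p = 0.0156. It was the only one of the 9 without overlap with WT (18.8% of all genes). The call was lost without s01 or s02 of WT or s18 of MBD2adGR (adjusted p of 0.0612, 0.0627 and 0.117) and in a fit of only these 2 lines (0.17). Library s18 stood apart from the other two of its line, at 53.0 CPM for *Ezh1*, 183 for *Ezh2* and 46.5 for *Scmh1*, where s16 and s17 had 25.6 and 30.2, 263 and 234, and 115 and 85.3. Each of these values of s18 lay on the side of *Mbd3* KO. Within its line s18 was also lowest for *Cbx2* and *Bmi1* and highest for *Cbx7*, the directions seen in *Mbd3* KO. *Suz12* and *Cbx8* went the other way in s18, and both were within the range of WT. *Suz12* was at 158 CPM in s18 against 182 in s16 and 204 in s17. *Cbx8* was at 12.5 CPM in s18, the highest of its line. *Ezh1* had a log2 fold change of 0.66 ± 0.21, adjusted p = 0.0537, and without s18 it was 0.28 (adjusted p = 0.48), while it passed without s16 (0.80, 0.0107), with DESeq2 (0.0319) and with library size only (0.0487). *Ezh2* (-0.24 ± 0.11, adjusted p = 0.19) passed without s16 (-0.40, 0.0225).

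Marker genes also differed between these libraries and lines. The 15 primitive endoderm markers summed to 26035 CPM in s18 against 1874 and 1468 in the other MBD2adGR libraries and 958 to 1225 in WT. In MBD2adGR 13 of the 15 were called higher, against 2.69% of all genes tested. The 12 pluripotency markers summed to 402 CPM in s18 against 91.2 in s16 and 229 in s17, and the 11 neural progenitor markers to 1352 against 2777 and 2087. In *Mbd3* KO, 11 of 12 pluripotency markers, 10 of 11 trophoblast markers and 3 of 15 primitive endoderm markers were called higher, and all 11 neural progenitor and 10 neuron markers lower. Of all genes tested 19.6% were called higher and 14.2% lower there, so the primitive endoderm count was near the background. In MBD2a, 11 of 12 pluripotency, 7 of 11 trophoblast and 8 of 15 primitive endoderm markers were called higher, and all 11 neural progenitor and 10 neuron markers lower. The shares of all genes called higher and lower were 16.9% and 13.7% in MBD2a. Its primitive endoderm markers summed to 4713, 1106 and 5673 CPM and its trophoblast markers to 601, 589.7 and 2490.2, against 2054 to 3060.2 and 2076 to 2768 in *Mbd3* KO. Against *Mbd3* KO, 3 trophoblast markers were called lower (4.4% of all genes) and 3 neural progenitor markers higher (0.856%) in MBD2a. Of 10 mesenchymal markers 6 were called lower and 1 higher in *Mbd3* KO, and 7 lower in MBD2a and in MBD2adGR, with 1 higher in MBD2a. In MBD2adGR 2.47% of all genes were called lower. None of the markers was at 0 in all libraries of a line except the mesenchymal marker *Lum* in MBD2a. The part of these cell types in the members' values was not tested. Of 20 cell cycle genes none was called in *Mbd3* KO (33.8% of all genes), where 1 passed higher (29.5%) and 5 lower (30.8%).

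MBD2aR181C had no member past the test against WT, where 0.0181% of all genes passed and 0.0181% were called. An unadjusted p under 0.05 was seen for 1 member, *Cbx7*, and DESeq2 called none. *Cbx7* was at 54.0, 109 and 55.9 CPM, again above all WT libraries, the only such member (6.56% of all genes did not overlap), with a log2 fold change of 0.65 ± 0.25, adjusted p = 0.999. Library s20 was the high one, and its summed pluripotency markers were 389 CPM against 49.1 in s19 and 139 in s21. *Ezh2*, at 263, 230.1 and 288 CPM, and *Bmi1*, at 60.1, 51.6 and 58.7 CPM, overlapped WT. Against *Mbd3* KO, 5 of 9 passed in MBD2adGR (46.9% of all genes) and 3 were called (25.2%), while 7 of 9 passed in MBD2aR181C (56.7%) and 4 were called (31.1%). *Ezh2*, *Cbx2*, *Cbx8*, *Bmi1* and *Scmh1* were higher than in *Mbd3* KO in both lines. *Suz12* also passed in MBD2aR181C (-0.37 ± 0.14, adjusted p = 0.0336), but not without s04 (-0.16, 0.314), s19 (0.111) or s21 (0.123) or in the fit of 2 lines (0.128). In MBD2adGR *Suz12* (-0.31 ± 0.14, adjusted p = 0.083) passed with RLE scaling (0.0364), library size only (0.0266) and DESeq2 (0.0289), and without s06 (0.0168) or s17 (0.0408), *Ezh1* (-0.24 ± 0.21, adjusted p = 0.354) passed without s18 (0.00541), and *Cbx2* did not pass in the fit of 2 lines (0.0599). *Cbx7* was not separated from *Mbd3* KO in either, with log2 differences of 0.05 ± 0.24, adjusted p = 0.871 in MBD2adGR and -0.41 ± 0.24, adjusted p = 0.156 in MBD2aR181C, and without s20 it was lower in the latter (-0.84, adjusted p = 0.00307).

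MBD2a was also set directly against its altered forms, which differ from it in construct and in marker levels. The 11 neural progenitor markers summed to 194 to 411 CPM in MBD2a. Their sums were 1352 to 2777 in MBD2adGR and 1934 to 3028 in MBD2aR181C. The part of the construct and of cell composition in the differences below was not tested. Against MBD2adGR, 6 of 9 passed (34.7% of all genes) and 1, *Scmh1*, was called (18.6%). *Ezh2* was lower in MBD2a by a log2 fold change of -0.87 ± 0.12, adjusted p = 3.75e-05, *Scmh1* by -1.02 ± 0.22, adjusted p = 0.00184 and *Cbx2* by -0.70 ± 0.18, adjusted p = 0.00675. *Cbx7* was higher, 0.80 ± 0.24, adjusted p = 0.0157. *Ezh1* did not differ past the test (0.16 ± 0.21, adjusted p = 0.566), and without s18 it did (0.54, adjusted p = 0.0158). Without s18, 3 members were called, with *Ezh2* and *Cbx7* added, whereas without s15, s16 or s17 none was. *Cbx2* (0.0506 and 0.0552) and *Cbx7* (0.0564 and 0.0737) did not pass without s15 or s16, by these adjusted p. *Cbx8* (-0.68 ± 0.22, adjusted p = 0.021) and *Bmi1* (-0.47 ± 0.15, adjusted p = 0.0233) did not pass without s14, s15, s16 or s17, where the adjusted p was highest without s14 (0.122 and 0.189), nor with library size only (0.0675 and 0.123). In the fit of 2 lines *Cbx7*, *Cbx8*, *Bmi1* and *Scmh1* did not pass (0.0616, 0.0944, 0.183 and 0.081), and without the MBD2t line *Bmi1* did not (0.0543). *Suz12* (0.36 ± 0.14, adjusted p = 0.0579) passed with RLE scaling (0.0355), library size only (0.0157) and DESeq2 (0.0257), and without s13 (0.0408) or s17 (0.034).

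Against MBD2aR181C, 8 of 9 passed, all but *Eed* (50.9% of all genes), and *Ezh2*, *Cbx7* and *Scmh1* were called (27.3%). The log2 fold changes were -1.07 ± 0.12, adjusted p = 2.06e-06 for *Ezh2*, 1.27 ± 0.25, adjusted p = 0.000376 for *Cbx7* and -1.28 ± 0.22, adjusted p = 0.000148 for *Scmh1*. *Eed* was at 0.34 ± 0.15, adjusted p = 0.061, and passed with RLE scaling (0.0239), library size only (0.00948), no filter (0.0477) and DESeq2 (0.0172), and without s20 (0.0373) or s21 (0.0462). MBD2a was below the point mutant for *Ezh2* and *Scmh1* and above it for *Cbx7*. *Suz12* (0.42 ± 0.14, adjusted p = 0.0201) and *Cbx8* (-0.62 ± 0.22, adjusted p = 0.0236) passed by less. Neither passed without s14 (adjusted p of 0.0658 and 0.13), s19 (0.0818 and 0.123) or s21 (0.0839 and 0.0716), nor *Cbx8* without s15 (0.0809), with library size only (0.0897) or in the fit of 2 lines (0.099).

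Ordered by mean level, the lines fell into a high and a low group for *Ezh2*, *Cbx2* and *Scmh1*. MBD2a, MBD2t and *Mbd3* KO were the lowest for each of these, and the 3 libraries of MBD2a did not overlap those of the line next above. For *Scmh1* this gap was narrow, from 44.4 CPM in s13 of MBD2a to 46.5 CPM in s18 of MBD2adGR. Libraries s16 and s17 of MBD2adGR were at 115 and 85.3 CPM. For *Bmi1* the step without overlap came below MBD2a, since MBD2a overlapped MBD2adGR and only MBD2t and *Mbd3* KO lay apart. That overlap was narrow and rested on s13 of MBD2a, at 43.75 CPM against 43.71 CPM in s18 of MBD2adGR. Libraries s14 and s15 of MBD2a were at 25.9 and 34.0 CPM. For *Cbx7* MBD2a stood alone at the top and WT, MBD3dMBD and MBD3a together at the bottom, with MBD2t, MBD2adGR, *Mbd3* KO and MBD2aR181C overlapping in a chain between. For *Ezh1*, *Eed*, *Suz12* and *Cbx8* every line overlapped its neighbours in the order, so that the order of neighbours was within the spread of the libraries.

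The other Polycomb genes, a list of 48 that holds further subunits and accessory proteins of PRC2 and PRC1, the deubiquitinase complex PR-DUB and the H3K27 demethylases, also moved both ways. In *Mbd3* KO 12 rose and 17 fell of 48 tested, where 29.5% of all genes rose and 30.8% fell, so by adjusted p alone the list was near the background. Of the 48, 6 were called higher and 2 lower, which is below the 19.6% and 14.2% of all genes. The median log2 fold change of the 48 was -0.08 against -0.03 for all genes. In MBD2a 15 rose and 13 fell (27.4% and 28.1% of all genes), in MBD2t 13 rose and 17 fell (28.7% and 31.1%), and in MBD2adGR 4 rose and none fell (8.55% in either direction). The groups within the list are read against the same shares. Of the 8 PRC2 accessory genes, 5 rose and none fell in *Mbd3* KO, with a median of 0.73. Both RING ligase genes of PRC1 fell, with log2 fold changes of -0.82 ± 0.14 for *Ring1* and -0.67 ± 0.13 for *Rnf2*. Of 8 other canonical PRC1 genes 1 rose and 4 fell, of 18 variant PRC1 genes 5 rose and 5 fell, and of 8 PR-DUB genes 4 fell.

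The largest rise was that of *Sfmbt2*, an imprinted MBT-domain gene needed in extraembryonic tissue, from 13.4 ± 4.53 CPM in WT to 217 ± 42.7 in *Mbd3* KO (log2 fold change 4.02 ± 0.69, adjusted p = 7.05e-05). *Ezhip*, an inhibitor of PRC2, went from 0.414 ± 0.538 to 2.78 ± 0.815 CPM (log2 fold change 2.69 ± 0.71, adjusted p = 0.00313). *Phf19*, a Polycomb-like protein that binds H3K36 methylation, went from 4.77 ± 3.06 to 27.9 ± 17.4 CPM (2.53 ± 0.54, adjusted p = 0.000552). *Pcgf5* is given above. The 2 called falls were *Asxl3*, a PR-DUB subunit, from 30.9 ± 17.2 to 6.48 ± 4.20 CPM (-2.24 ± 0.58, adjusted p = 0.00288), and *Auts2*, a neuronal PRC1 partner, from 177 ± 87.3 to 54.7 ± 10.8 CPM (-1.70 ± 0.37, adjusted p = 0.000734). In MBD2a the same rule named *Ezhip* (3.23 ± 0.69), *Sfmbt2* (2.56 ± 0.65), *Phf19* (2.17 ± 0.54), *Pcgf5* (1.61 ± 0.51), *Asxl3* (-2.45 ± 0.59) and *Auts2* (-1.99 ± 0.38). In MBD2t they were at 3.49 ± 0.67, 3.61 ± 0.68, 2.76 ± 0.54, 2.02 ± 0.52, -2.59 ± 0.59 and -1.84 ± 0.38 in that order. *Bcor*, a variant PRC1 subunit, was the 1 called gene of the list between MBD2a and *Mbd3* KO (-1.05 ± 0.28, adjusted p = 0.0214), and was chosen after its value had been seen.

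**Figure D4:**
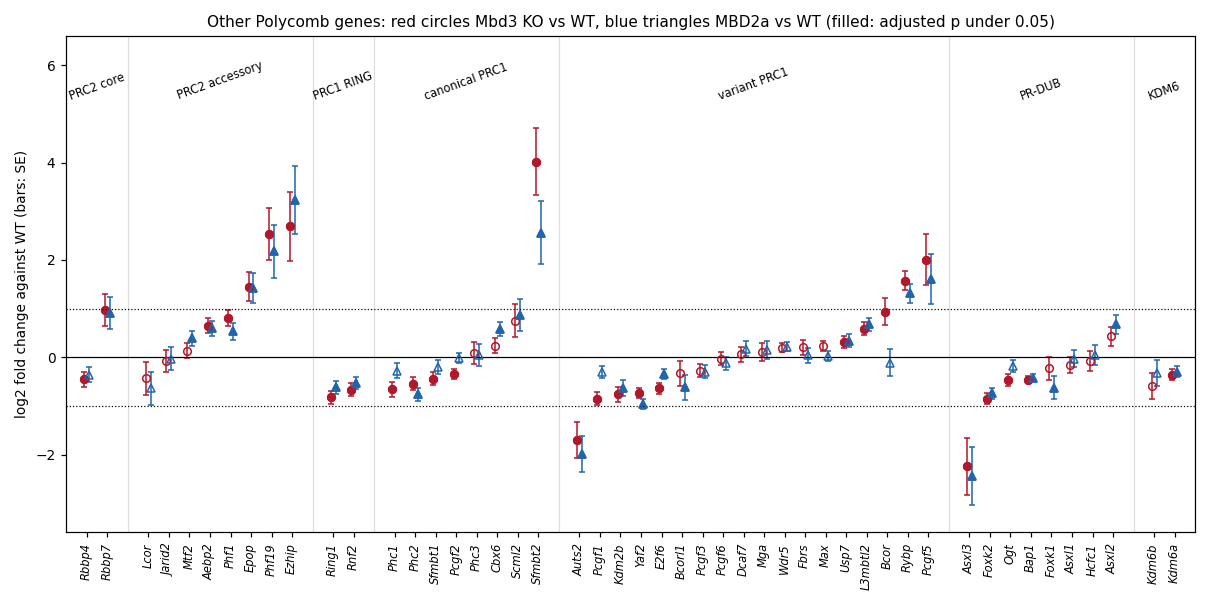
Log2 fold change against WT (vertical axis, bars: standard error) of the 48 other Polycomb genes, grouped by complex, for *Mbd3* KO (circles) and MBD2a (triangles), filled where the adjusted p was under 0.05. Most lie within 1 of 0, the PRC2 accessory genes lie mostly above 0, both RING genes below, and *Sfmbt2*, *Ezhip* and *Phf19* are highest.

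Among genes known as Polycomb targets, a list of 50 developmental regulators had 10 called higher and 21 called lower in *Mbd3* KO (median log2 fold change -0.66), 13 and 22 in MBD2a, 11 and 23 in MBD2t, and 8 and 2 in MBD2adGR. Of all genes tested 19.6%, 16.9%, 18.2% and 2.69% were called higher in these lines, and 14.2%, 13.7%, 15.1% and 2.47% lower. The cell cycle inhibitors *Cdkn2a* and *Cdkn2b*, the textbook targets of BMI1 and CBX7, were named after their values had been seen. *Cdkn2a* rose in *Mbd3* KO (log2 fold change 2.02 ± 0.53, adjusted p = 0.00293) and in MBD2a (2.59 ± 0.53, adjusted p = 0.000509). *Cdkn2b* rose in *Mbd3* KO (2.45 ± 0.45, adjusted p = 0.000124) and in MBD2a (2.32 ± 0.45, adjusted p = 0.000296). Both were called higher in MBD2t as well, at 33.2 ± 2.05 and 9.10 ± 1.18 CPM, where WT had 6.78 ± 2.12 and 1.81 ± 0.616. They were also called higher in MBD2adGR, with uneven libraries (24.7 ± 19.9 and 5.99 ± 4.91 CPM, adjusted p = 0.0368 and 0.0278). *Cdkn1a* rose without being called in the same 4 lines. *Cdkn1c* fell in MBD2a (-2.84 ± 0.44, adjusted p = 4.16e-05) and did not pass at -0.01 ± 0.41, adjusted p = 0.991 in *Mbd3* KO, -0.74 ± 0.41, adjusted p = 0.131 in MBD2t and -0.60 ± 0.41, adjusted p = 0.378 in MBD2adGR. MBD2a was below *Mbd3* KO (-2.83 ± 0.44, adjusted p = 0.000394) and MBD2adGR (-2.24 ± 0.43, adjusted p = 0.000732) in the direct comparisons, and its difference from MBD2t was not tested. The gene rows do not separate the transcripts that *Cdkn2a* makes for INK4A and ARF.

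Genes with the pattern most like that of a called member were sought among 12814 genes that averaged 1 or more in log2 CPM, by the mean absolute difference of the log2 fold changes against WT over the 7 lines, given here after each gene. For *Ezh2* these were *Vta1* (0.04) and *Msantd3* (0.04), for *Scmh1* *Acvr2a* (0.05) and *Inpp5f* (0.06), and for *Bmi1* *P2rx3* (0.07) and *Apbb1* (0.07). For *Cbx8* they were *Zfp30* (0.05) and *Ppt1* (0.07), and for *Cbx7* *Gpx1* (0.13) and *Slc35f2* (0.15). *Cbx7* had the least close matches of the 5.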

How the data were processed

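RNA-seq of day 8 NPCs from 8 lines (3 libraries each) was analysed. ChIP-seq and other samples of the series were not analysed here. The deposited table holds whole-number counts per gene, which the authors made by trimming reads with Trim Galore (version 0.6.6 in the submitters' processing notes), aligning them with STAR to mm9 and counting them over GENCODE genes with QuasR. Whether counting used strand is not given in the sources used here. Columns carry a line name but no replicate number, and 0 columns were left unused.

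Genes were kept by edgeR's filterByExpr (16582 of 25400). Counts were TMM-scaled, and 1 edgeR (version 4.0.16, with limma 3.58.1 in R 4.3.3) quasi-likelihood fit over all 24 libraries, with line as the only term, gave log2 fold changes, standard errors and Benjamini-Hochberg adjusted p over all genes tested in each of 15 comparisons. The test was checked on simulated counts. Log2 CPM used a prior count of 1. Ratios of 2 genes per kb of annotated exon were compared by exact two-sided permutation tests (SciPy 1.17.1). Figures were drawn with Matplotlib 3.10.9. The median library total was 36797095 counts. P-values of the fit rest on 1 estimate of spread per gene, shared by the libraries of all lines. That spread is between clones, except within MBD2t, where it is between repeats of 1 clone. For MBD2t no p-value covers the spread among clones of that line. The permutation tests used only the libraries of the lines compared.

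All 9 genes are reported in every comparison. From the other Polycomb genes the called genes with the largest rises and falls are named, up to 4 each for *Mbd3* KO, MBD2a and MBD2t against WT, and for each called member the 2 nearest genes by pattern. A gene of the other Polycomb genes is not reported here. The members and the gene lists were chosen with earlier results of these data known. Alternatives were RLE scaling, scaling by library size only, no filter, DESeq2 (1.42.0), a fit of only the lines compared, a fit without MBD2t, no fold change threshold, each library left out in turn and, chosen after seeing the data, the legacy quasi-likelihood test. Promoter windows are from RefSeq (GRCm38.p6), gene coordinates from the mm9 annotation.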

Additional observations from a re-analysis of the deposited data

How the results depend on the processing

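Of 1737 fold change values under the alternatives, 1655 stayed on their side of the adjusted p threshold, 51 no longer passed, 31 newly passed and 0 reversed. The sign changed for 74 values where neither value was past that threshold. Of 208 counts of called members, 186 stayed within 1.5 times, and 0 of 147 ratio values moved by more than 1 SD. Without a fold change threshold the counts were 8 for *Mbd3* KO, 9 for MBD2a and 8 for MBD2t against WT. Against *Mbd3* KO they were 8 for MBD3a, 2 for MBD2a, 5 for MBD2adGR and 7 for MBD2aR181C, and for MBD2a they were 6 against MBD2adGR and 8 against MBD2aR181C. In fits of only the lines compared, 0 were called for MBD2adGR against WT and 0 for MBD2a against MBD2adGR, and 0 in the latter with RLE scaling, with library size only and with DESeq2, where the cause was not tested. Leaving out each library in turn gave 3 to 5 called members for *Mbd3* KO against WT (3 without s04), 0 to 1 for MBD2adGR against WT (0 without s01, s02 or s18) and 0 to 3 for MBD2a against MBD2adGR (3 without s18 and 0 without s15, s16 or s17). No paired analysis was possible because the deposited columns carry no replicate number, so the fit with a replicate block was not run.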
